A study of Mus musculus with 9 samples.

Results

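The genes that make, break down and sense retinoic acid were followed in whole mouse embryos carrying targeted alleles of Notch1, which encodes a receptor of the Notch pathway, or of Dll3, which encodes a ligand-like protein of that pathway. The members are all probe sets annotated to exactly 1 of 9 gene symbols: Stra6, Rdh10, Aldh1a2, Cyp26a1, Crabp1, Crabp2, Rara, Rarb and Rarg. All 9 genes, of 12393 named on the array, were measured, by 10 of its 22690 probe sets: 2 for Rarg and 1 for each of the others. RNA came from embryos at 9.5 days post coitum in 5 groups: 2 arrays labelled Notch1 null (Notch1tm1Con/tm1Con), 1 labelled Notch1 het (Notch1tm1Con/+), 2 wild type (+/+), 2 labelled Dll3 het (Dll3neo/+) and 2 labelled Dll3 null (Dll3neo/neo). Both are germline alleles, and 1 Notch1 null label names the C57BL/6J background. The labels do not say whether an array holds 1 embryo or a pool, so the p-values speak to the scatter among these arrays and some of that scatter may be technical.

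Retinoic acid is made from vitamin A in steps. STRA6 takes retinol into cells, RDH10 oxidises it to retinal and ALDH1A2 oxidises retinal to retinoic acid, while CYP26A1 breaks retinoic acid down. CRABP1 and CRABP2 bind it in the cytoplasm, and the receptors RARA, RARB and RARG switch genes on or off when it binds them. In the embryo at this stage ALDH1A2 is made mainly in somites and neighbouring mesoderm and CYP26A1 in the tail bud, which keeps the growing tail low in retinoic acid.

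Each deposited value is a linear ratio to 1 number per probe set, and the median over the 9 arrays is exactly 1 for 19847 of the 22690 probe sets, the members included. Ratios give the differences between arrays for a gene but not its absolute level, so levels are not compared between genes. Notch1 ratios at its 2 probe sets were 1.47 and 1.31 in Notch1 null replicate 1, 1.69 and 1.74 in replicate 2, 1.08 and 1.06 in Notch1 het, and between 0.916 and 1.02 in the wild-type arrays, so Notch1 signal was highest in the arrays labelled null. The Dll3 ratio was 0.804 and 0.933 in Dll3 null and 1.00 and 1.09 in wild type. Probe positions relative to the targeted parts of the genes were not at hand, and so neither gene checks the labels. The spiked-in dap control had a mean ratio of 6.71 and 9.20 in the wild-type pair and 5.35 and 2.87 in the Notch1 null pair. It was 1 in Notch1 het and 0.444 to 0.468 in the 4 Dll3 arrays. These ratios overlapped between Dll3 het and Dll3 null only. In the other comparisons a difference in preparation behind them, if any, cannot be told apart from genotype. Its part in the results was not tested. Xist and Eif2s3y signal gave a female pattern on the Notch1 het array and on replicate 1 of the 3 other mutant groups (4 arrays), while the remaining 5, with both wild-type arrays among them, read as male. With sex as a covariate 3 of the 6 member calls below ended (Cyp26a1, Crabp1 in Notch1 het and Aldh1a2 against Notch1 het).

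The groups were compared to ask whether transcripts of the retinoic acid pathway follow loss of the receptor or of the ligand. In Notch1 null against wild type, 3 of the 10 member probe sets fell (Aldh1a2, Crabp1 and Crabp2) and 1 rose (Cyp26a1). These 4 passed an adjusted p under 0.05 by limma, a linear model fitted to all probe sets, as did 9.45% of all 22626 probe sets tested; 5.99% of all were lower and 3.46% higher. The median log2 difference was -0.25 over the members and -0.03 over all probe sets tested. For 9 of the 10, Rdh10 being the exception, the Notch1 null and wild-type arrays did not overlap, against 55.2% of all probe sets. In Notch1 het against wild type 1 member passed, Crabp1, where 2.76% of all probe sets passed (1.77% lower). In whole-embryo RNA, fewer cells of a type and less RNA per cell cannot be told apart.

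**Figure D1:**
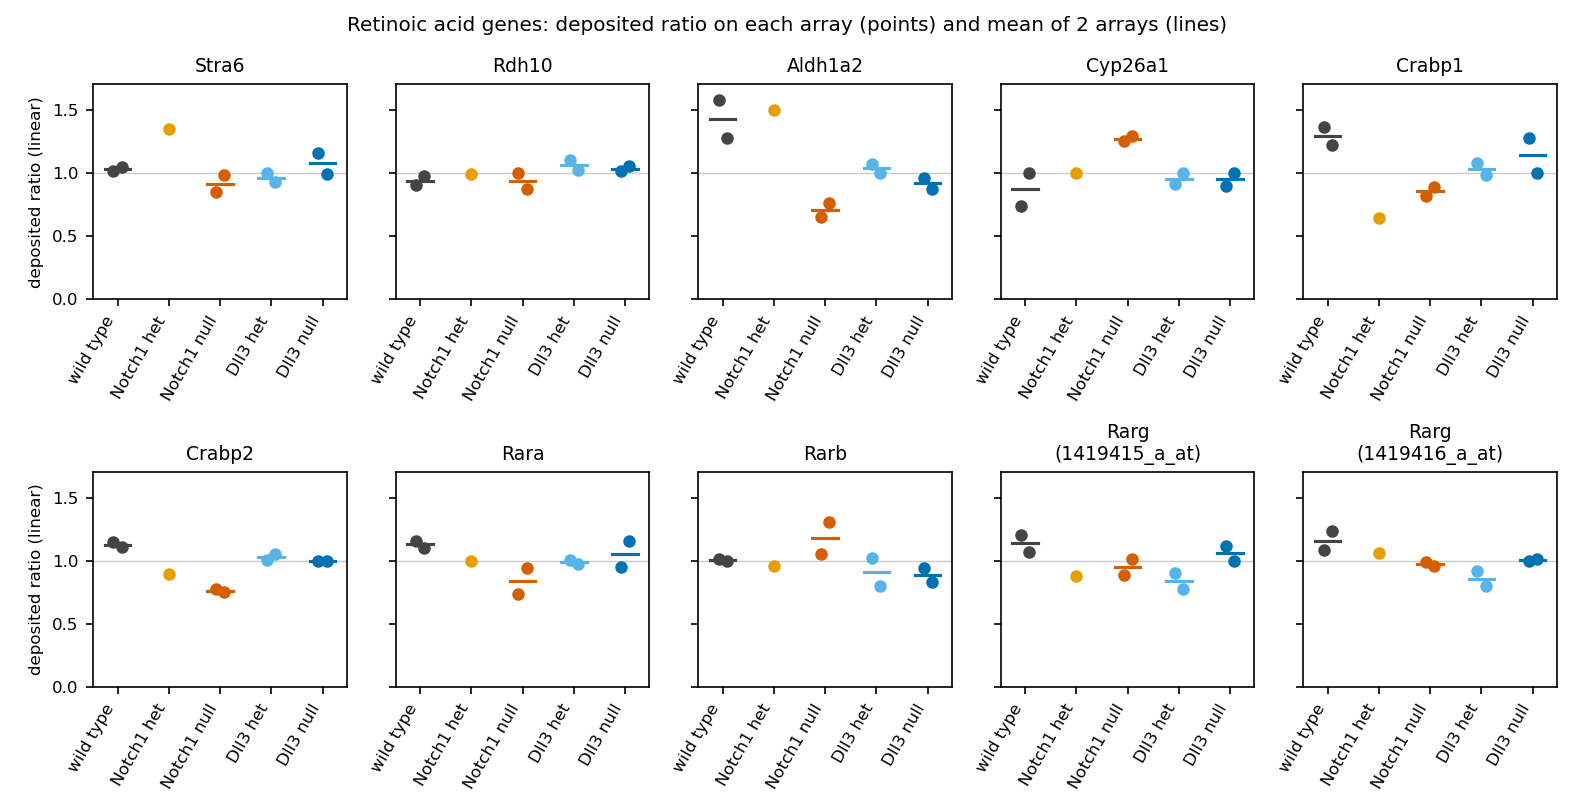
Deposited linear ratio (vertical axes) of each member probe set on each of the 9 arrays, by genotype group; points are arrays and lines are means of 2 arrays. Aldh1a2 lies at 0.651 and 0.759 in Notch1 null, below the other 7 arrays, and Cyp26a1 at 1.25 and 1.29, above the other 7. The share of all probe sets with the Notch1 null pair apart in this way was not computed.

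Aldh1a2, the main retinoic acid synthesising enzyme of the early embryo, varied more than any other member. Its ratio was 1.58 and 1.28 in wild type, 1.50 in Notch1 het, 1.07 and 1.00 in Dll3 het, 0.962 and 0.873 in Dll3 null and 0.651 and 0.759 in Notch1 null. Both Notch1 null arrays were thus the lowest of the 9, and both wild-type arrays with the Notch1 het array were the highest. The shares of all probe sets with such orders were not computed. The fall in Notch1 null was 2.02-fold against wild type (log2 -1.01 ± 0.14 SE, adjusted p = 0.00404) and 2.13-fold against the single Notch1 het array (log2 -1.09 ± 0.17 SE, adjusted p = 0.0185), where 1.78% of all probe sets passed (0.928% lower) and no other member did. The call against wild type held in all 20 alternatives run, with log2 differences from -1.17 to -0.86 and adjusted p up to 0.0351. The call against Notch1 het ended in 6 of 19 alternatives, among them leaving out Notch1 null replicate 1 (adjusted p = 0.0836) or replicate 2 (adjusted p = 0.0869).

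Aldh1a2 in the Dll3 embryos lay between these ends. Against wild type the log2 difference was -0.63 ± 0.14 SE in Dll3 null (95% interval -0.94 to -0.33, adjusted p = 0.163) and -0.45 ± 0.14 SE in Dll3 het (95% interval -0.76 to -0.15, adjusted p = 0.149). Neither passed after adjustment over all probe sets, although all 4 Dll3 arrays lay below both wild-type arrays and both intervals, which are not adjusted for the number of probe sets, leave out 0. The share of all probe sets split this way was not computed. The dap control also set the Dll3 arrays apart from wild type, so a difference in preparation cannot be told apart from genotype here. The difference between Notch1 null and Dll3 null was -0.38 ± 0.14 SE on the log2 scale (adjusted p = 0.141) and did not pass. In the order Notch1 het, wild type, Dll3 het, Dll3 null, Notch1 null, no 2 neighbouring groups differed past the threshold.

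Aldh1a2 is a gene of the somites, and a list of 11 somite markers was set beside it. This list, like the others below, was chosen with earlier results of these data known. In Notch1 null against wild type 5 of the 11 fell, 0 rose and 6 did not pass, with a median log2 difference of -0.25 over their probe sets against -0.03 over all. A gene was counted if any of its probe sets passed, as 9.45% of all probe sets did (5.99% lower). Uncx, of the posterior somite compartment, fell 2.41-fold (log2 -1.27 ± 0.12 SE, adjusted p = 0.00121), Pax1, of the sclerotome, 1.88-fold and Tcf15, of the early epithelial somite, 1.61-fold. Meox2 fell at both of its probe sets (1.95-fold and 1.67-fold), as did Pax3, of the dermomyotome (2.02-fold and 1.59-fold). The mean log2 ratio of the 11 genes was -0.42 and -0.34 in Notch1 null, 0.15 and 0.06 in wild type, -0.02 and -0.05 in Dll3 het and -0.21 and -0.13 in Dll3 null, which puts the groups in the order they take for Aldh1a2. The Notch1 het array departed from this order: its somite mean was -0.08, below wild type, while its Aldh1a2 difference from wild type was 0.08 ± 0.17 SE on the log2 scale (adjusted p = 0.864). In that array Pax3 was lower than in wild type (2.16-fold and 2.55-fold), while neither Uncx nor Pax1 passed against wild type. The Uncx ratio was 1.22 in Notch1 het, below the 1.38 and 1.32 of wild type, and the Pax1 ratio was 1.22, between the 1.28 and 1.09 of wild type. Notch1 null lay below Notch1 het for both (2.17-fold and 1.93-fold). Uncx and Pax1 were also lower in Notch1 null than in Dll3 null (1.40-fold, adjusted p = 0.0475, and 1.61-fold, adjusted p = 0.0219). Against Dll3 null the Uncx call was lost in 14 of 18 alternatives and the Pax1 call in 6 of 18. Whether somite tissue has a part in the Aldh1a2 difference was not tested.

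**Figure D2:**
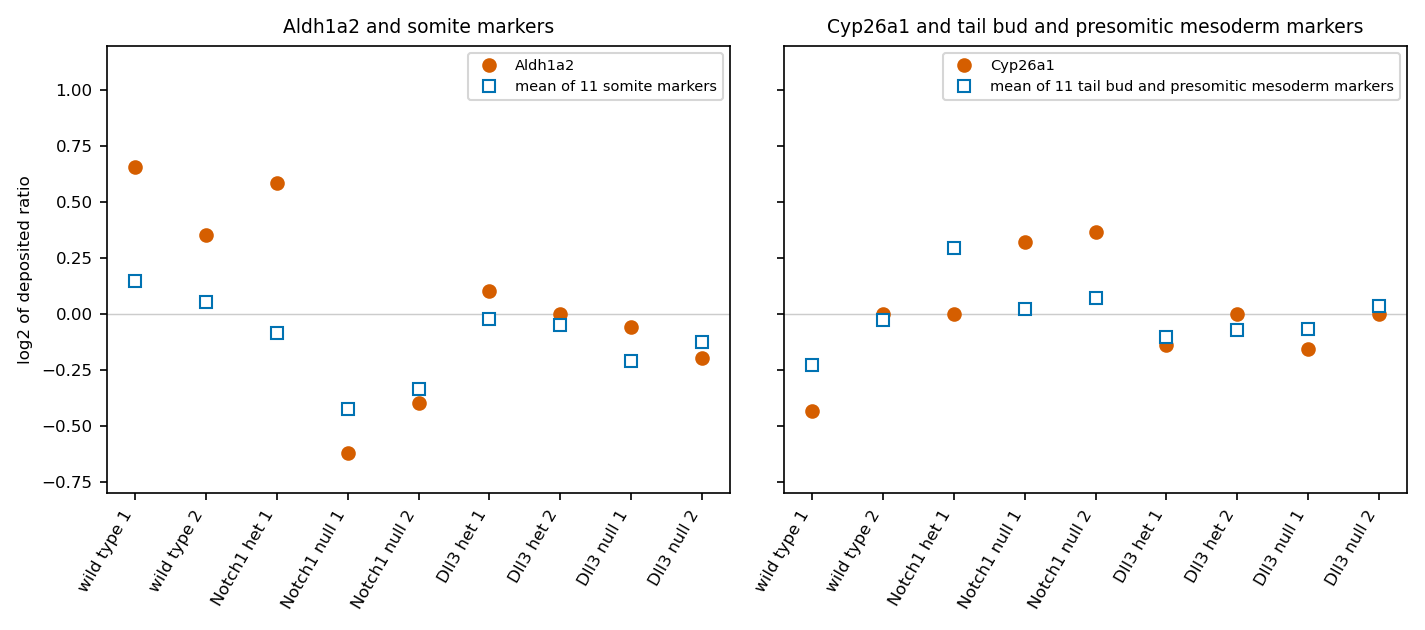
Log2 of the deposited ratio (vertical axis) on each of the 9 arrays for Aldh1a2 with the mean of 11 somite markers (left) and for Cyp26a1 with the mean of 11 tail bud and presomitic mesoderm markers (right). Aldh1a2 and the somite mean are both lowest in the 2 Notch1 null arrays; the tail bud mean is highest, at 0.30, in the Notch1 het array, where Cyp26a1 is at 0.

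The genes whose profile over the 9 arrays lay nearest to Aldh1a2 were taken by the root mean square difference of log2 values after each gene was centred on its own mean. They were Ptov1 (0.13), Pax1 (0.17), Ncdn (0.17), Dcakd (0.18) and Vac14 (0.18), where the median over 12392 other genes was 0.41. This ranking is a description and no test. Ptov1, the nearest, had ratios of 0.711 and 0.768 in Notch1 null, 1.38 in Notch1 het and 1.27 and 1.30 in wild type. In the Dll3 arrays Ptov1 read 0.941 to 1.01. Pax1 is a member of the somite list, and Ptov1, Ncdn, Dcakd and Vac14 are not. Pax1 ratios were 0.572 and 0.696 in Notch1 null, 1.22 in Notch1 het, 1.28 and 1.09 in wild type and 0.912 to 1.06 in the Dll3 arrays.

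Cyp26a1, which encodes the enzyme that clears retinoic acid, moved the other way. Its ratio was 1.25 and 1.29 in Notch1 null, 1 in Notch1 het, 0.741 and 1 in wild type, 0.910 and 1 in Dll3 het and 0.898 and 1 in Dll3 null. Both Notch1 null arrays lay above the other 7, and the share of all probe sets for which they do was not computed. A ratio of exactly 1 stood on 4 arrays, and no other of the 22690 probe sets has it on as many. The rise against wild type was 1.48-fold (log2 0.56 ± 0.15 SE, adjusted p = 0.0426). This call rests on single arrays and was lost in 11 of 20 alternatives. The adjusted p was 0.140 without Notch1 null replicate 1, 0.211 without replicate 2 and 0.215 without wild type replicate 1, where the log2 difference was 0.35. Leaving out either Dll3 het array (0.0640) or either Dll3 null array (0.0526), which enter only through the shared estimate of spread, also ended it. The difference from the single Notch1 het array was 0.35 ± 0.18 SE (adjusted p = 0.370) and that from Dll3 null 0.42 ± 0.15 SE (adjusted p = 0.134), and neither passed. Cyp26a1 differences from wild type were 0.14 ± 0.15 SE in Dll3 null (adjusted p = 0.804) and 0.15 ± 0.15 SE in Dll3 het (adjusted p = 0.678) on the log2 scale, and neither passed.

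Of 11 tail bud and presomitic mesoderm markers, 1 rose in Notch1 null against wild type, 0 fell and 10 did not pass, with a median log2 difference of 0.24. Genes were counted here if any of their probe sets passed, and 9.45% of all probe sets passed in that comparison (3.46% higher). The gene that rose was Nkx1-2, of the caudal neural plate (1.56-fold at 1 of 3 probe sets, log2 0.64 ± 0.15 SE, adjusted p = 0.0308). The log2 differences of the 14 probe sets of the list ran from -0.28 (Mesp2) to 0.65 (Tbx6), and neither of these ends passed (adjusted p = 0.257 and 0.0712). The mean log2 ratio of the list was 0.02 and 0.07 in Notch1 null, -0.23 and -0.02 in wild type, 0.30 in Notch1 het and -0.10 to 0.04 in the Dll3 arrays. Wild type replicate 1 was thus the lowest array for this list and for Cyp26a1 alike. The part of tail bud tissue in the Cyp26a1 difference was not tested. The 5 genes nearest to Cyp26a1 in profile were Klhl26, Creb3l2, Esm1, Erbin and H2-Ab1, with root mean square differences from 0.0873 to 0.101 where the median gene had 0.27.

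Cyp26a1 and Rarb are known to be switched on by retinoic acid itself through response elements near their start sites, so their promoters are shown. The motif searched was a direct repeat of the core AGGTCA or AGTTCA or GGGTCA or GGTTCA with 5 bases between the copies, on either strand, in the 300 bases of each RefSeq promoter (build GRCm38.p6). It occurs for 31 of 26994 genes (0.115%) and for 2 of the 7 member genes in the table, Cyp26a1 and Rarb. The same repeat with 2 bases between the copies occurs for 84 genes (0.311%) and for 0 of these 7. No promoter of Crabp2 or Rdh10 was at hand, so neither gene was searched. Cyp26a1 and Rarb were already known for such elements, so their matches are a description and no test. Each sequence below is the 250 bases before the start site, read 5′ to 3′ on the strand of the gene, with the repeat in capitals; Cyp26a1 is on the plus strand at chr19:37697558-37697807 and Rarb on the minus strand at chr14:16575477-16575726.
Cyp26a1: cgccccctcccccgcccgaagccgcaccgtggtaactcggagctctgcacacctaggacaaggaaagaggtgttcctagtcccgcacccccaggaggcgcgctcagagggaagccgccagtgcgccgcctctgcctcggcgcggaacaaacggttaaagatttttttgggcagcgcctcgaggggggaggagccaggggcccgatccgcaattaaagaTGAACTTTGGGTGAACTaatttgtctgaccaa
Rarb: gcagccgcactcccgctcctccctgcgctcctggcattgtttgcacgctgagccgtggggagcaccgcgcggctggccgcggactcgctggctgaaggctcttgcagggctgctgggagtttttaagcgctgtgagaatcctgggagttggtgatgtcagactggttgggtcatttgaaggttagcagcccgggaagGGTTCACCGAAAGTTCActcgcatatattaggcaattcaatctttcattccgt
The repeat spans 32 to 16 bases before the start site in Cyp26a1, where it lies on the opposite strand and reads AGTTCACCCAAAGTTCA, and 53 to 37 bases before it in Rarb. The match describes the sequence and does not show binding. Both genes had their highest mean ratio in Notch1 null, but only Cyp26a1 passed the test.

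Rarb was the only receptor gene with a match in the promoter bases searched. Its ratios were 1.06 and 1.31 in Notch1 null, 0.960 in Notch1 het, 1.01 and 1.00 in wild type, 1.02 and 0.796 in Dll3 het and 0.945 and 0.830 in Dll3 null. Its 2 Notch1 null arrays were the highest, but they spanned 1.06 to 1.31, and the share of all probe sets with that pair highest was not computed. The difference from wild type was 0.22 ± 0.15 SE on the log2 scale (95% interval -0.11 to 0.56, adjusted p = 0.428). Against Dll3 null the difference was 0.41 ± 0.15 SE (adjusted p = 0.159), and it did not pass.

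Rara, the most widely expressed of the retinoic acid receptor genes, had ratios of 0.733 and 0.939 in Notch1 null, 1 in Notch1 het, 1.16 and 1.10 in wild type, 1.01 and 0.971 in Dll3 het and 0.949 and 1.16 in Dll3 null. Its difference in Notch1 null from wild type was -0.45 ± 0.14 SE on the log2 scale (95% interval -0.77 to -0.12) and did not pass (adjusted p = 0.0899). Notch1 null replicate 1 was the lowest array and set much of this value, which was -0.27 without it and -0.62 without replicate 2.

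Both Rarg probe sets had their lowest mean in Dll3 het. At the first, the ratios were 0.903 and 0.779 in Dll3 het, 1.12 and 1.00 in Dll3 null, 0.885 and 1.02 in Notch1 null, 0.880 in Notch1 het and 1.21 and 1.07 in wild type. At the second they were 0.919 and 0.796 in Dll3 het, 1.00 and 1.02 in Dll3 null, 0.993 and 0.958 in Notch1 null, 1.06 in Notch1 het and 1.09 and 1.23 in wild type. The difference of Dll3 het from wild type was -0.44 on the log2 scale at each (SE 0.13 and 0.12, adjusted p = 0.145 and 0.114). The dap control differed between these groups too, and the same limit holds. Dll3 null, with no copy of the normal allele, lay above Dll3 het by 0.33 ± 0.13 SE and 0.24 ± 0.12 SE (adjusted p = 0.897 for each). No Rarg difference passed in any of the 7 comparisons, and in Notch1 null against wild type the values were -0.26 and -0.25.

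**Figure D3:**
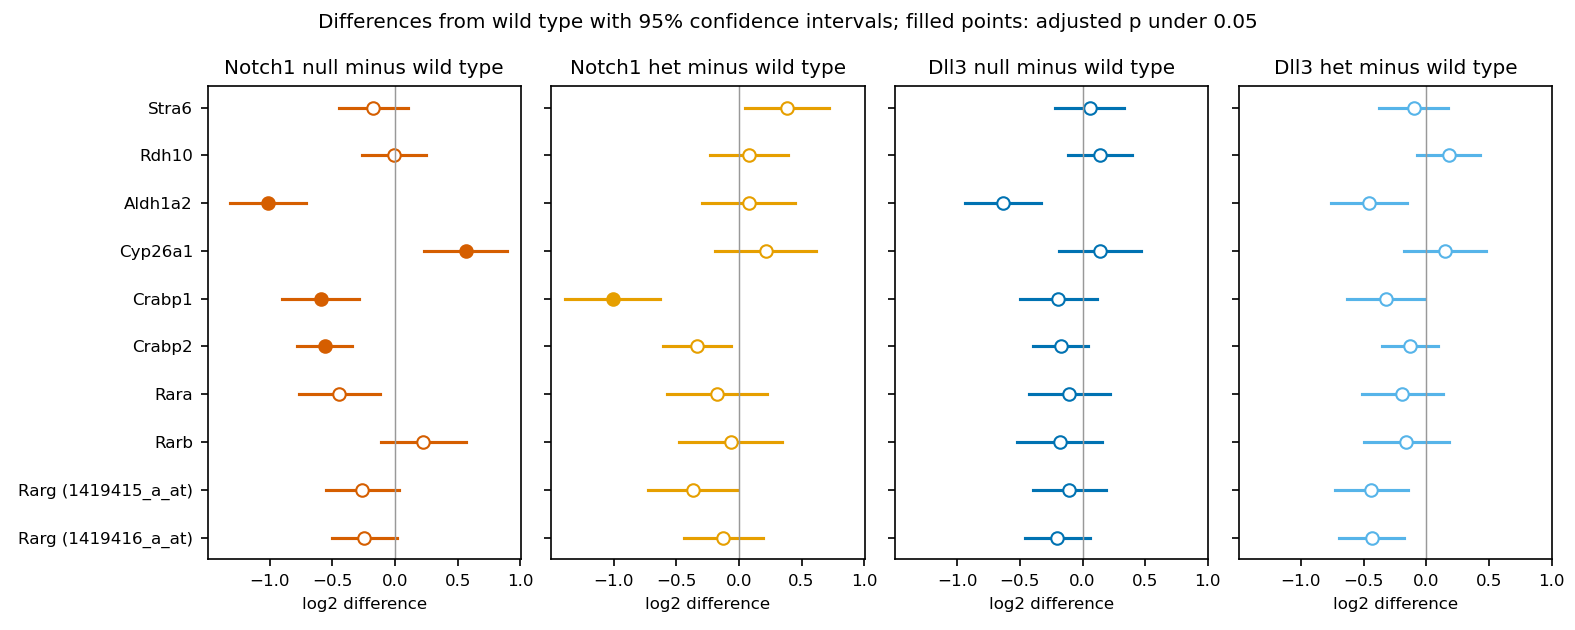
Log2 difference from wild type (horizontal axes) of each member probe set in the 4 other groups; bars are 95% confidence intervals from the limma fit, and filled points have an adjusted p under 0.05. In Notch1 null 4 points are filled, in Notch1 het 1 (Crabp1) and in both Dll3 groups 0.

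The binding protein genes were both lower in Notch1 null than in wild type. Crabp2, whose product carries retinoic acid to the nucleus, had ratios of 1.15 and 1.10 in wild type, 1.01 and 1.05 in Dll3 het, 0.996 and 1.00 in Dll3 null, 0.893 in Notch1 het and 0.774 and 0.752 in Notch1 null. It had the smallest standard error of the 10 members in this fit. Both wild-type arrays lay above the other 7, as they did for the second Rarg probe set and for 6.77% of all probe sets. The fall in Notch1 null against wild type was 1.48-fold (log2 -0.56 ± 0.10 SE, adjusted p = 0.0103). It ended without Notch1 null replicate 2 (adjusted p = 0.0778), without wild type replicate 1 (0.0638) and without wild type replicate 2 (0.0579). The difference between Notch1 null and Dll3 null was -0.39 ± 0.10 SE, just short of the threshold (adjusted p = 0.0517). It passed in 3 alternatives, with low-median probe sets left out (adjusted p = 0.0481), with probe sets averaged per gene (0.0309) and with array weights (0.0441).

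Crabp1, which binds retinoic acid in hindbrain and neural crest cells among others, was lowest in the Notch1 het array. Its ratio was 0.642 there, 0.820 and 0.890 in Notch1 null, 1.08 and 0.985 in Dll3 het, 1.28 and 1.00 in Dll3 null and 1.36 and 1.22 in wild type. All 3 Notch1 allele arrays thus lay below the other 6. This grouping was read from the values, and the share of all probe sets split this way was not computed. The fall against wild type was 2.01-fold in Notch1 het (log2 -1.01 ± 0.17 SE, adjusted p = 0.0219) and 1.51-fold in Notch1 null (log2 -0.60 ± 0.14 SE, adjusted p = 0.0273). The Notch1 het call rests on 1 array, assumed to vary like the others, and it ended without wild type replicate 1 (adjusted p = 0.0890) or replicate 2 (0.0902). The Notch1 null call ended when any of the 4 arrays compared was left out (adjusted p from 0.0927 to 0.148). Notch1 null lay above Notch1 het by 0.41 ± 0.17 SE on the log2 scale (adjusted p = 0.246), so no order between them was shown. Of 8 neural crest markers set beside Crabp1, 2 rose in Notch1 null against wild type, Tfap2a (2.22-fold at 1 probe set and 1.46-fold at another of its 3) and Erbb3 (1.35-fold at 1 of 2), 1 fell, Twist1 (1.55-fold), and 5 did not pass. Genes were counted here if any of their probe sets passed, 16 probe sets in all. The share per probe set was 9.45% of all in Notch1 null against wild type (5.99% lower, 3.46% higher). Twist1 also fell in Dll3 het against wild type (1.68-fold), and Tfap2a was higher in Notch1 null than in Dll3 null (1.79-fold).

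Stra6 and Rdh10, the first steps of the pathway, showed no difference that passed in any of the 7 comparisons. Stra6 ratios were 1.35 in Notch1 het, 1.02 and 1.04 in wild type, 1.00 and 0.925 in Dll3 het, 1.16 and 0.991 in Dll3 null and 0.850 and 0.982 in Notch1 null. The Notch1 het array was the highest of the 9, and Notch1 null lay below it by 0.56 ± 0.15 SE on the log2 scale (adjusted p = 0.0995). Rdh10 had the narrowest range, from 0.870 to 1.11. Its difference between Notch1 null and wild type was -0.01 ± 0.11 SE (95% interval -0.26 to 0.24, adjusted p = 0.978), so differences of that size in either direction lie within the error of these arrays.

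In the Dll3 comparisons no member passed by limma. Of the 10 probe sets, 0 passed in Dll3 null against wild type and 1 had an unadjusted p under 0.05, where 0.0884% of all probe sets passed. For Dll3 het against wild type these counts were 0 and 4, with 0.486% of all passing, and for Dll3 null against Dll3 het 0 and 1, with 0% of all passing. In Notch1 null against Dll3 null 0 members passed and 6 had an unadjusted p under 0.05, with 5.74% of all passing. Arrays of the groups did not overlap for 5 of the 10 in Dll3 null against wild type (40.7% of all probe sets), 8 in Dll3 het against wild type (47.2%), 4 in Dll3 null against Dll3 het (33.5%), 9 in Notch1 null against Dll3 null (53.2%), 8 in Notch1 het against wild type (77.2%) and 9 in Notch1 null against Notch1 het (76.2%). A test for any difference among the 5 groups, limma's moderated F-test, called 3 members, Aldh1a2 (adjusted p = 0.0126), Crabp1 (0.0291) and Crabp2 (0.0395), and 8.15% of all probe sets. Comparisons against wild type share the same 2 control arrays, so the members' differences in them are not independent of each other.

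Other genes of retinoid metabolism and transcription were described from a list of 36, of which 30 were measured. In Notch1 null against wild type 4 of the 30 fell, 1 rose and 25 did not pass, with a median log2 difference of -0.04 over 43 probe sets. A gene was counted if any of its probe sets passed, as 9.45% of all probe sets did (5.99% lower, 3.46% higher). Dhrs4, a retinal reductase, fell at both of its probe sets (1.86-fold and 1.74-fold). Rdh11, another retinal reductase, fell 1.37-fold, Fabp5, a fatty acid binding protein that also binds retinoic acid, 1.33-fold, and Rxra, a partner receptor of the retinoic acid receptors, 1.31-fold, each at 1 of 2 probe sets. Ncoa1, a coactivator of nuclear receptors, rose 1.39-fold at 1 of 2 probe sets. Rdh11 was lower still in Notch1 het (2.45-fold against wild type, adjusted p = 0.0110), with a ratio of 0.571 there against 0.992 and 1.04 in Notch1 null and 1.32 and 1.49 in wild type, and Notch1 null lay above Notch1 het (1.78-fold). Its other probe set read 0.654 in Notch1 het and 0.917 and 1.05 in wild type, a smaller gap in the same direction. That probe set did not repeat the Notch1 null fall: it read 1.02 and 1.00 there, between the wild-type arrays. Nrip1, a corepressor induced by retinoic acid, was higher in Notch1 null than in Dll3 null (2.60-fold at 1 of 2 probe sets, adjusted p = 0.00711). In the other comparisons 0 of the 30 passed.

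Of 20 genes known to respond to retinoic acid, 15 were measured, and in Notch1 null against wild type 2 fell, 0 rose and 13 did not pass, with a median log2 difference of -0.03 over 26 probe sets, the same as over all probe sets tested. The 2 calls fell on 2 of the 26 probe sets, where 5.99% of all probe sets were called lower and 9.45% in either direction. Nr2f1, an orphan nuclear receptor of the hindbrain and crest, fell 1.60-fold (log2 -0.68 ± 0.16 SE, adjusted p = 0.0270), and Hoxb5, a Hox gene of the trunk, 1.50-fold (log2 -0.59 ± 0.11 SE, adjusted p = 0.0113). Hoxb5 ratios were 1.36 and 1.51 in wild type and 0.928 to 1.07 in the other 7 arrays. Hoxb5 also fell in Dll3 het against wild type (1.53-fold, adjusted p = 0.0467). In Notch1 het against wild type Tshz1 fell (1.66-fold) and Hoxa3 rose (1.84-fold), each at 1 of 2 probe sets. Tgm2, a transglutaminase induced by retinoic acid, was higher in Notch1 null than in Dll3 null (1.57-fold) at 1 of 6 probe sets.

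**Figure D4:**
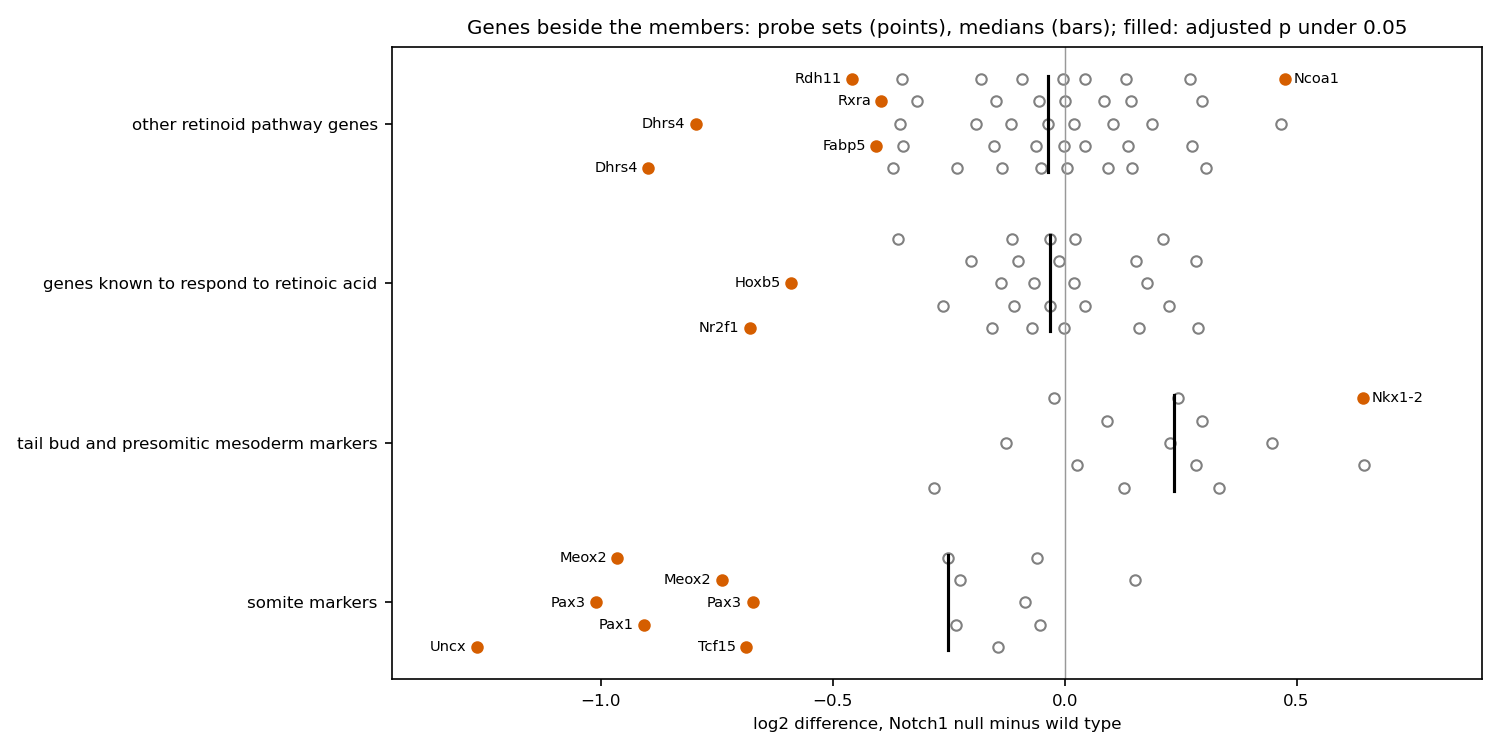
Log2 difference between Notch1 null and wild type (horizontal axis) for each probe set of 4 gene lists set beside the members; points are probe sets, black bars are list medians and filled points have an adjusted p under 0.05. Medians lie at -0.04 and -0.03 for the retinoid and responsive lists, at 0.24 for tail bud markers and at -0.25 for somite markers.

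Of the 20 probe-set calls made in Notch1 null against wild type among the genes set beside the members, neural crest markers included, 18 ended when some 1 of the 4 arrays compared was left out. The calls of Uncx and Pax1 in that comparison held in all 19 alternatives. All 15 such calls in the other comparisons ended in at least 1 alternative that left out an array compared. Markers of other tissues that a dissected embryo may carry were also examined. Of 10 yolk sac endoderm markers 0 passed in any comparison. Among the comparisons against wild type, the lowest unadjusted p were those of Apom (log2 -0.75 ± 0.20 SE in Dll3 het, adjusted p = 0.120) and Afp (-1.37 ± 0.55 SE in Notch1 null, adjusted p = 0.167). The mean log2 ratio of the 10 markers was 0.32 and -0.61 in Notch1 null and -0.27 and 0.59 in wild type, so replicates of a group differed more than the groups. Of 5 blood markers 0 passed, with Hbb-y at -0.26 ± 0.10 SE and Slc4a1 at 0.37 ± 0.17 SE in Dll3 het against wild type, and their mean lay between -0.21 and 0.12 in all arrays but Dll3 null replicate 2 (-0.64). Of 5 placenta markers only Tpbpa was measured, and its difference of 0.34 ± 0.15 SE in Notch1 het against wild type did not pass (adjusted p = 0.256).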

How the data were processed

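Total RNA of whole embryos at 9.5 days post coitum was labelled with biotin and hybridised to Affymetrix arrays, 1 per sample, per the labels' protocols. The submitters' processing notes name RMA with no version. The deposited values are linear ratios; the authors' step that divided each probe set by 1 number of its own is stated in no label or note used, and was read from the values. No intensity or detection call was used, so a transcript's presence is unknown and no filter on level was applied.

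Ratios were turned into log2 with no pseudocount, and 64 control probe sets were set aside, leaving 22626. limma 3.58.1 in R 4.3.3 (lmFit, eBayes) was fitted to all 9 arrays with 1 mean per group (4 residual and 5.42 prior degrees of freedom), with Benjamini-Hochberg adjustment over all probe sets in each of 7 comparisons and a threshold of 0.05. Errors are standard errors of this fit. The small number of arrays limits the precision. The procedure was run on simulated data with independent noise. Its recovery of differences as small as those called here is not reported. Symbols come from the platform annotation; 0 were changed by RefSeq identifiers.

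The named genes are all members, every gene of 8 lists with a probe set past the threshold in any comparison, for lists with none the 2 of lowest p against wild type, and the 5 genes nearest in profile to Aldh1a2 and to Cyp26a1. Mesp2 and Tbx6, the ends of a range, were added after their values were seen. Members and lists were chosen with earlier results of these data known. Alternatives were other scalings, a pseudocount of 0.1, left-out low-median probe sets, averaged probe sets, robust and weighted fits, fewer arrays, a replicate block, embryo sex (from Xist and Eif2s3y signal) and each array left out.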

Additional observations from a re-analysis of the deposited data

How the results depend on the processing

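The count of member probe sets called in Notch1 null against wild type was 4, fell to 2 after quantile normalization and ran from 1 to 4 when 1 array was left out. In Notch1 het against wild type the count of 1 became 0 with quantile normalization, with embryo sex as a covariate and with only the arrays of both groups, and ran from 0 to 1 with an array left out. In Notch1 null against Notch1 het the count of 1 became 0 with those 3 settings and with only the wild type and Notch1 arrays, and ran from 0 to 1 with an array left out. In Notch1 null against Dll3 null the count of 0 became 1 with low-median probe sets left out, averaged probe sets and array weights. For any difference among the groups the count of 3 became 1 with quantile normalization and with embryo sex, and ran from 0 to 2 with an array left out. It was not computed without the Notch1 het array, which would change the question.

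Of the 6 calls on members, Aldh1a2 in Notch1 null against wild type held in all 20 alternatives; the other 5 ended in 3 to 11. With embryo sex as a covariate Cyp26a1 (adjusted p = 0.0553), Aldh1a2 against Notch1 het (0.0557) and Crabp1 in Notch1 het (0.0640) ended. No called member difference changed sign in any alternative. With replicate number as a block, the members called stayed at 4, 1 and 1 in the comparisons with calls, and were 2 for any difference among the groups; correlations of the replicate differences between groups ran from -0.10 to 0.16, so the numbers were not taken as pairs. Of the calls among the other genes, 13 ended under that block. Array medians were moved by at most 0.04 on the log2 scale by centring, which kept all 6 member calls. Quantile normalization ended those of Cyp26a1, Crabp1 (both) and Aldh1a2 against Notch1 het. Over all probe sets, 2139 were called in Notch1 null against wild type, 969 after quantile normalization and 306 to 2139 with an array left out. The cause of these changes was not tested.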
